A study of Rattus norvegicus with 8 samples.

Results

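In rat liver, 9 genes of thyroid hormone handling were followed: the deiodinases Dio1 and Dio3, the receptor gene Thra, the binding proteins Crym and Ttr, the transporter gene Slc16a10 and the hormone-responsive genes Thrsp, Klf9 and Gpd2. They were found on the arrays as all probes whose transcript accession belongs to one of these gene symbols in RefSeq. This gave 10 probes, 2 for Gpd2 and 1 for each other gene, of 30367 probes on the array. All 10 were among the 16952 probes that were well above background in the liver channel on at least 4 of 8 arrays and were therefore tested. The animals were adult male Sprague-Dawley rats. The control group ate a control diet and the PFOS group a diet that held potassium perfluorooctanesulfonate (PFOS), a surfactant with a fluorinated chain, at 50 mg/kg, both for 28 days. Each group held 4 rats, and each rat's liver RNA was on its own two-colour array in the Cy5 dye, beside a commercial rat reference RNA in the Cy3 dye that was common to all arrays. The title of the study names liver microRNAs and the balance of thyroid hormone, and the mRNA arrays are described here. The labels give the 4 rats of a group their own identifiers and do not say how they were housed.

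The thyroid secretes mainly thyroxine, T4, which tissues convert to the active hormone T3 by removal of an iodine atom from the outer ring. Deiodinases are enzymes with selenocysteine in the active site. Dio1, the abundant form in liver, can remove iodine from either ring and also clears sulfated hormone, while Dio3 removes iodine from the inner ring and thereby inactivates T4 and T3. Liver also makes transthyretin (Ttr), a plasma carrier of T4, takes hormone up through membrane transporters, and conjugates it to glucuronic acid or sulfate for excretion. In the nucleus T3 binds the receptors encoded by Thra and Thrb, which act on target genes such as Dio1 itself, Thrsp, Klf9 and Gpd2.

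The deiodinase Dio1 carries the finding of the ratio comparison, so the 250 bases before its annotated start are shown. They come from RefSeq's GRCr8 assembly at chr5:127319785-127320034 on the minus strand, and no coordinates of the array's older design were used. Capitals mark matches to AGGNCA, the core letters of the half-site that thyroid hormone receptors bind with any base at position 4, searched on both strands.

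Dio1: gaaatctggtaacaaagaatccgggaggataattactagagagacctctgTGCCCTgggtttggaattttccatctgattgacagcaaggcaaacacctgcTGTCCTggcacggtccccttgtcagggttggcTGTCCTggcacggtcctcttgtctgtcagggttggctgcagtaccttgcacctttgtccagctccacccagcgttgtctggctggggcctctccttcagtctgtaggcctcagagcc

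The 3 matches in Dio1 lie on the strand opposite to the gene and begin 200, 149 and 117 bases before the start. AGGNCA, which includes every AGGTCA, was present in 51.2% of 33469 windows of this length over all genes, and in 5 of the 9 windows found for 8 of the members. AGGTCA itself was in 14.1% of all windows and in 1 of the 9, that of Slc16a10. A direct repeat of AGGTCA with 4 bases between its copies was in none of the 9 and in 1 of the 33469. The looser motif was chosen after the Dio1 sequence had been seen, and a match is a description of letters only.

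All 8 arrays came from 1 slide, on which each of its 2 rows held 2 arrays of each group. The median Cy5 signal was 154.5 to 160 units in the first row and 116 to 138 in the second, over a local background of 71 to 75 units. Liver markers were high: all 8 hepatocyte markers, among them Alb, Cps1 and Tat, were tested, and their mean log2 ratio was 5.999 to 6.39 over the control arrays and 6.02 to 6.30 over the PFOS arrays. None of the tested probes for markers of hepatocytes, Kupffer cells, endothelium, stellate cells, cholangiocytes or blood differed between the groups (limma, adjusted p under 0.05). The summed Cy5 signal of the 4 endothelial probes was 6724 to 12260 units in control and 5091 to 7263 in PFOS, and that of the 4 cholangiocyte probes was 935 to 1167 in control and 1157 to 1389 in PFOS. The 8 Kupffer cell probes summed to 19890 to 31960 units in control and 17240 to 28660 in PFOS. The median log2 change was -0.36 for endothelium, -0.24 for Kupffer cells and -0.23 for blood. It was -0.13 for stellate cells, -0.11 for hepatocytes and 0.10 for cholangiocytes. The ranges of the groups overlap for each of these lists, and the part of these cells in the results below was not tested. In whole liver, fewer cells of a type and less RNA per cell cannot be told apart.

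The comparison of the diets asks which of these genes differed in the liver of PFOS-fed rats. Of the 10 member probes, 1 differed in the log2 ratio of Cy5 over Cy3 (limma, Benjamini-Hochberg adjusted p under 0.05 over all 16952 probes), against a background of 3.74% of all tested probes called. That probe was Dio1, which fell. The values of the groups did not overlap for 2 of the 10, Dio1 and Dio3, where 12.6% of all tested probes were apart in this way. Dio3 was near background in control and met the filter through the PFOS arrays, as given below. The median log2 change of the 10 was -0.08, beside -0.01 over all tested probes. In the Cy5 channel alone, which does not use the reference, Dio1 was again the 1 member called, with 4.7% of all probes called, 2.37% higher and 2.32% lower, and the groups of 2 members were apart, where 13% of all probes were. In the Cy3 channel alone limma called 0 of the 10 members, against 0.0767% of all probes (0.059% higher, 0.0177% lower), and 0 had groups apart, against 2.58%. Dio1, Ttr and Thrsp had an unadjusted limma p under 0.05 there. The share of all probes at that level was not counted, so no excess among the members can be read from it.

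**Figure D1:**
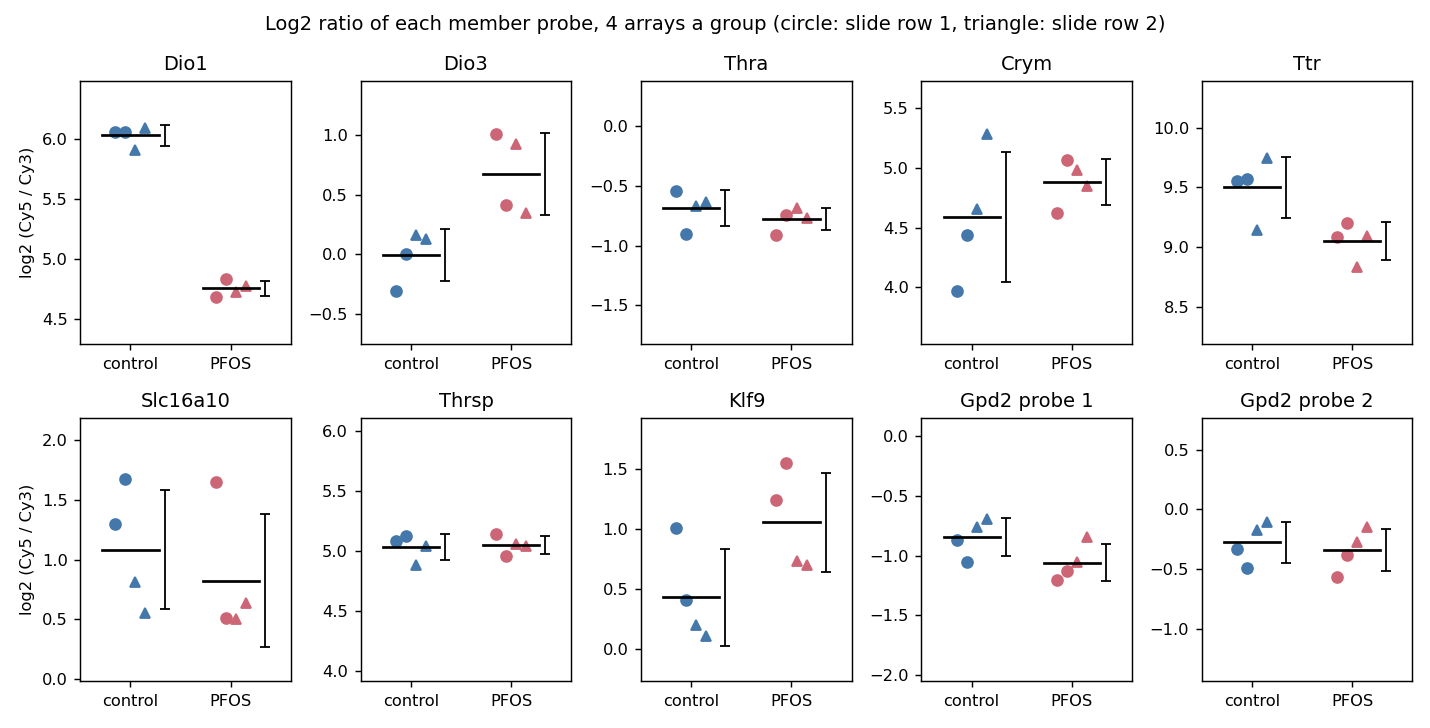
Log2 ratio of liver Cy5 over reference Cy3 for each of the 10 member probes, with 1 point per array, the group mean as a line and the SD as a bar; circles are arrays of the first slide row and triangles of the second, and every panel spans the same log2 range. The Dio1 groups lie apart, at 5.91 to 6.09 in control and 4.68 to 4.83 in PFOS.

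Dio1 fell to less than the control level in every PFOS rat. Its log2 ratio was 6.06, 6.07, 5.91 and 6.09 in control rats 1 to 4 and 4.68, 4.83, 4.72 and 4.77 in PFOS rats 1 to 4. All PFOS arrays were thus below all control arrays, and the gap between the groups was wider than the spread within either. The means were 6.03 ± 0.08 (SD, n = 4) and 4.75 ± 0.07 (SD, n = 4). The ratio was 2.43-fold lower in PFOS, which is -1.28 on the log2 scale (SE 0.08), with a limma adjusted p = 9.85e-05. Over 14 other settings, Cy5 alone among them, the change ran from -1.31 to -0.75. The size of the fall thus depended on the setting, which the SE does not cover. The SE also depended on it, from 0.073 with no filter to 0.19 with scaling between arrays. The limma adjusted p ran from 6.86e-05 to 0.0637, and Dio1 was called in 13 of the 14. In the ratio as reported, the within-group SD of Dio1, 0.075, was smaller than that of all but 5.7% of tested probes, whose median was 0.157.

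The Cy5 channel alone gave log2 signals for Dio1 of 10.99, 10.86, 10.87 and 10.97 in control and 9.45, 10.13, 9.83 and 9.84 in PFOS. Here too the groups were apart, while PFOS rats differed more among themselves than in the ratio. The change was -1.11 (SE 0.13, limma adjusted p = 0.0018). The reference signal of Dio1 was weak, at 69.5 to 91.8 units, and changed by -0.14 (SE 0.04, limma adjusted p = 1.00, unadjusted p = 0.0133). With the scanner software's processed signals the ratio changed by -0.75, still called. The Cy5 signal then changed by -1.16 and the Cy3 signal by -0.445 (SE 0.14), while scaling to the 75th percentile gave 0.012 in Cy3. Within the slide rows the ratio changed by -1.31 in the first and -1.25 in the second, where 2 rats against 2 gave limma adjusted p-values of 0.0262 and 0.0637.

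Dio3, the inactivating deiodinase, had higher values in PFOS that did not pass the test. The log2 ratio of its probe was -0.31, 0.00, 0.16 and 0.13 in control and 1.01, 0.41, 0.93 and 0.35 in PFOS. Each PFOS rat was above each control rat, and PFOS rats 1 and 3 were well above PFOS rats 2 and 4. The log2 change was 0.68 (95% interval 0.29 to 1.07, limma adjusted p = 0.0707), and 0.46 in Cy5 alone (limma adjusted p = 0.075). Signal was low: the median Cy5 signal was 80.2 to 91.5 units in control and 93 to 140.5 in PFOS. Background was clearly exceeded on 2 control arrays and on all 4 PFOS arrays. The PFOS arrays alone thus met the filter of 4 arrays, and the control arrays alone did not. Median centring instead of loess gave 0.39 and processed signals gave 1.86, and it passed without PFOS rat 4 (0.79, limma adjusted p = 0.0483, where 3.25% of all probes were called).

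Thra encodes the thyroid hormone receptor alpha and also a splice form that does not bind hormone. Its log2 ratio was -0.54, -0.90, -0.67 and -0.63 in control and -0.91, -0.75, -0.69 and -0.77 in PFOS. The groups overlapped. The change was -0.09 (95% interval -0.31 to 0.12, limma adjusted p = 0.64), so a change of more than 0.31 in either direction lay outside the interval. Its Cy5 and Cy3 signals changed by -0.07 and 0.03.

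The binding proteins were Crym, a cytosolic T3-binding protein, and Ttr. Crym had a log2 ratio of 3.97, 4.44, 4.66 and 5.28 in control and 4.62, 5.07, 4.98 and 4.84 in PFOS. Control rats ranged more widely than PFOS rats and enclosed all of them. The log2 change of 0.29 (95% interval -0.25 to 0.83, limma adjusted p = 0.544) did not pass, and it was 0.64 in the first slide row and -0.06 in the second. Its within-group SD, 0.410, was larger than that of 94% of tested probes.

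Ttr gave a different answer in the ratio and in each channel. Its log2 ratio was 9.55, 9.57, 9.14 and 9.75 in control and 9.08, 9.20, 8.83 and 9.10 in PFOS. Control rat 3 lay below the other controls and within the PFOS range, and the groups overlapped there. The log2 change of -0.45 (95% interval -0.75 to -0.14, limma adjusted p = 0.116) did not pass and was -0.16 with scaling between arrays. It passed without control rat 3 (-0.57, limma adjusted p = 0.0408, with 2.44% of all probes called). The Cy5 signal was 273346.5 to 347189 units before normalization. After quantile normalization it was 18.24, 18.32, 18.17 and 18.31 in control and 18.28, 18.33, 18.24 and 18.28 in PFOS. The change was 0.02 (95% interval -0.12 to 0.17). Quantile normalization gives each rank the same value on every array, which limits how far so bright a probe can move. Control rat 1 and PFOS rat 3 shared the value 18.2426, and PFOS rats 1 and 4 shared 18.2771. The small change and its interval therefore cannot show that the liver transcript was unchanged. With scaling to a percentile instead, the Cy5 change was 0.098 (SE 0.17). The Cy3 signal of the reference was 10.34, 10.19, 10.86 and 10.59 in control and 10.65, 10.68, 11.48 and 11.23 in PFOS, a change of 0.52 (SE 0.22, limma adjusted p = 1.00, unadjusted p = 0.0418). The lower Ttr ratio thus came with a higher reference signal. With all arrays the Cy5 change was not below 0 under either scaling, within the limits given above. Which of the channels follows the liver transcript was not tested.

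Slc16a10, a carrier of aromatic amino acids and iodothyronines, had the widest spread of log2 ratios among the members. It had a log2 ratio of 1.30, 1.67, 0.81 and 0.55 in control and 1.65, 0.51, 0.50 and 0.64 in PFOS. PFOS rat 1 was as high as the highest control, and the other PFOS rats were near the lowest. The change was -0.26 (95% interval -0.95 to 0.43, limma adjusted p = 0.688), and the within-group SD of 0.527 exceeded that of 96.8% of tested probes. Before normalization its Cy5 signal was 102.2 to 200.2 units and its Cy3 signal 91.8 to 110.5 units, so both channels were weak. A change as large as -0.95 lies within the interval.

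Among the hormone-responsive genes Thrsp, Klf9 and Gpd2 no probe passed in the ratio. Thrsp, also called Spot 14, marks the lipogenic response to T3 and carbohydrate. Its log2 ratio was 5.09, 5.12, 4.88 and 5.04 in control and 5.15, 4.95, 5.05 and 5.04 in PFOS, with a change of 0.02 (95% interval -0.17 to 0.20, limma adjusted p = 0.933). Both channels gave lower values in PFOS. The Cy5 signal was 15.005, 15.02, 13.32 and 14.55 in control and 13.35, 13.63, 12.87 and 13.56 in PFOS. Control rats 1, 2 and 4 were above every PFOS rat, and control rat 3 lay within the PFOS range.

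The Cy5 change of Thrsp was -1.12 (95% interval -1.91 to -0.33, limma adjusted p = 0.115) and did not pass. Without control rat 3 it was -1.503 and passed (limma adjusted p = 0.006, with 3.45% of all probes called), and over the 8 arrays left out in turn it ran from -1.503 to -0.94. The reference Cy3 signal ran beside it, at 11.62, 11.55, 10.26 and 11.19 in control and 10.05, 10.46, 9.72 and 10.33 in PFOS, a change of -1.01 (SE 0.30, limma adjusted p = 1.00, unadjusted p = 0.0089). Control rat 3 was the lowest control in both channels, and PFOS rat 3 the lowest array in both. The reference RNA was the same on every array, and why its signal moved with that of the liver was not tested. Slco1a4, a hepatic organic anion carrier that also takes up thyroid hormone and was picked out after its values were seen, had the same kind of values: 0.01 in the ratio, 0.75 in Cy5 (limma adjusted p = 0.0642) and 0.68 in Cy3 (limma adjusted p = 1.00).

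**Figure D2:**
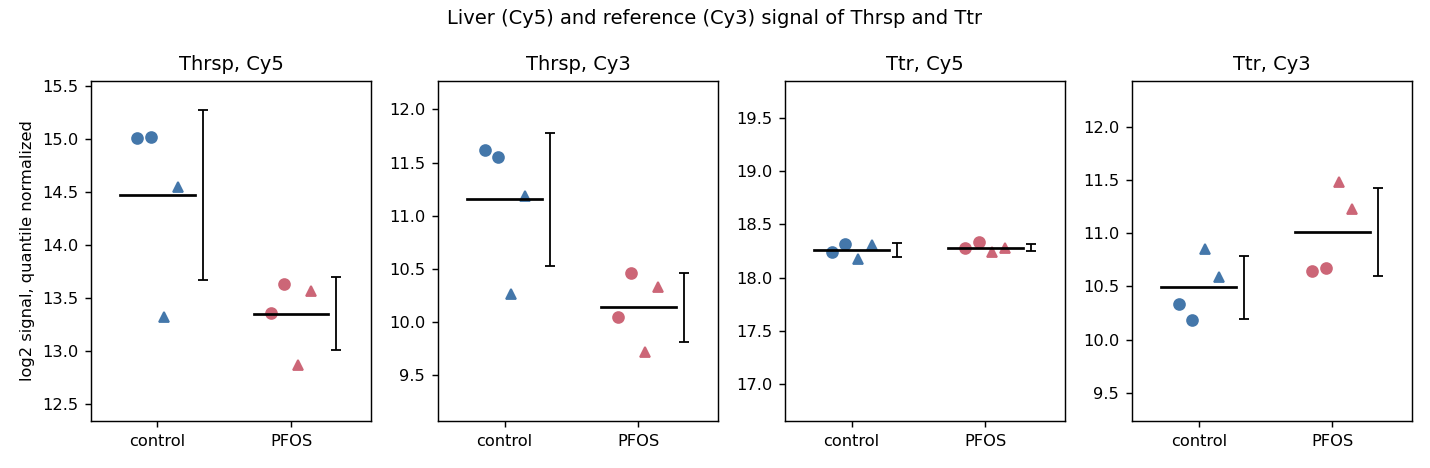
Log2 signal of Thrsp and Ttr in the liver channel (Cy5) and in the reference channel (Cy3), quantile normalized, with 1 point per array, the group mean as a line and the SD as a bar; circles and triangles are the first and second slide row, and every panel spans the same log2 range. Thrsp changed by -1.12 in Cy5 and -1.01 in Cy3, while Ttr changed by 0.02 in Cy5 and 0.52 in Cy3.

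Klf9, a Krueppel-like transcription factor that T3 and glucocorticoids induce, had higher values in PFOS within each slide row. In the first row its log2 ratio was 1.01 and 0.40 in control and 1.25 and 1.55 in PFOS, and in the second row 0.20 and 0.11 in control and 0.73 and 0.70 in PFOS. Over both rows the groups overlapped, because control rat 1 was above PFOS rats 3 and 4. The log2 change was 0.63 (SE 0.24, 95% interval 0.08 to 1.17, limma adjusted p = 0.196) and did not pass. With slide row as a block the same change had an SE of 0.14 and passed (limma adjusted p = 0.0473, with 3.68% of all probes called), while with slide column as a block it did not (limma adjusted p = 0.327). The change was 0.69 in the first row and 0.56 in the second.

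The Cy5 channel gave Klf9 signals of 10.88, 10.32, 10.14 and 10.08 in control and 11.24, 11.54, 10.70 and 10.73 in PFOS. The change was 0.70 (SE 0.23, limma adjusted p = 0.124), and it passed with slide row as a block (limma adjusted p = 0.0239, with 4.21% of all probes called). The Cy3 signal of Klf9 moved by 0.02. Median Cy5 brightness was higher in the first row, as given above, and so was Klf9, and the part of brightness in the Klf9 values was not tested.

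Gpd2, the mitochondrial glycerol-3-phosphate dehydrogenase of the NADH shuttle, had 2 probes with the same accession. The first had a log2 ratio of -0.87, -1.05, -0.76 and -0.69 in control and -1.20, -1.13, -1.05 and -0.85 in PFOS. The groups overlapped, and the change was -0.22 (95% interval -0.46 to 0.03, limma adjusted p = 0.315). The second had -0.33, -0.49, -0.17 and -0.11 in control and -0.56, -0.38, -0.27 and -0.15 in PFOS, a change of -0.07 (95% interval -0.33 to 0.20, limma adjusted p = 0.798). Neither probe was called, and both intervals include 0.

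**Figure D3:**
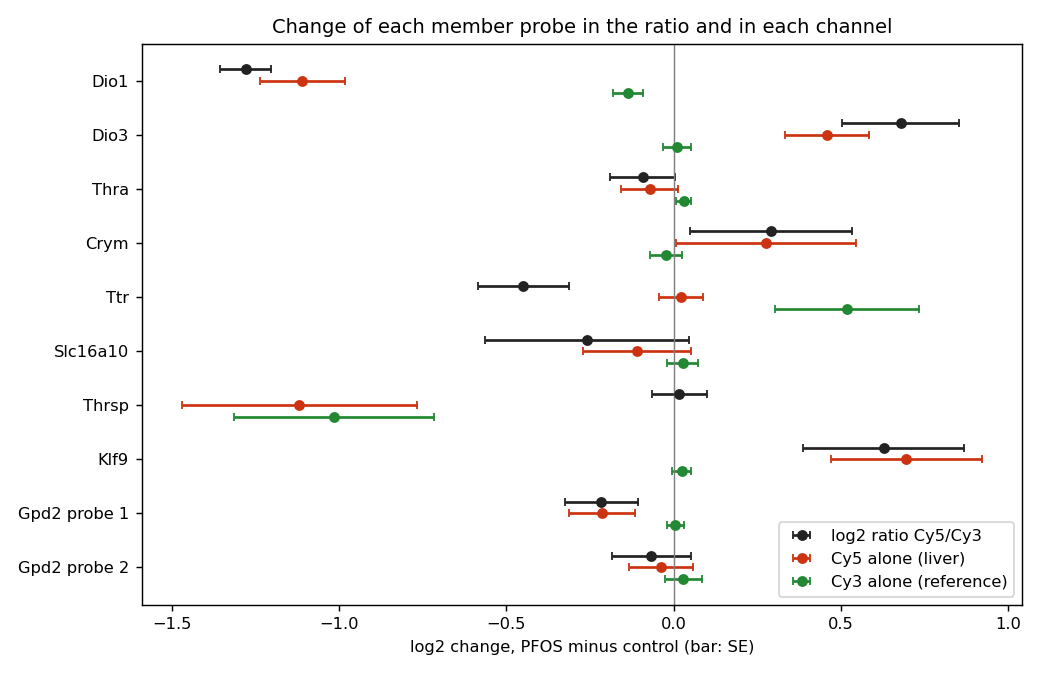
Log2 change, PFOS minus control, of each member probe in the ratio (black), in liver Cy5 alone (red) and in reference Cy3 alone (green), with standard errors as bars. Dio1 lies near -1.28 in the ratio and -1.11 in Cy5, and Thrsp and Ttr are the probes whose reference signal moved by more than 0.5.

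In all, 6 lists of related genes, chosen by function, were counted by probe in the same fit. Earlier results of these data were known when the lists were chosen, so the counts describe them and test nothing. For hormone metabolism 3 of the 7 probes tested for 5 genes rose, none fell and 4 did not pass. Their median log2 change was 0.34 beside -0.01 over all probes, of which 1.74% were called higher. Both probes of Ugt1a6, a glucuronosyltransferase that conjugates phenols, and the probe of Ugt2b1, a glucuronosyltransferase of steroids, were those that rose. Ugt1a6 had a log2 ratio of 1.96, 1.55, 2.38 and 1.598 in control and 3.51, 3.06, 3.40 and 2.93 in PFOS on one probe, a change of 1.35 (SE 0.20, limma adjusted p = 0.00714), and 1.59 (SE 0.25, limma adjusted p = 0.00867) on the other. In the second slide row alone neither probe passed, at 1.18 and 1.19, and in the first row alone the former did not (1.53, limma adjusted p = 0.0636). Ugt2b1 ranged in control from 4.16 to 7.42 and in PFOS from 8.80 to 9.12, so the PFOS rats were far more alike than the controls. Its change of 3.01 (SE 0.55, limma adjusted p = 0.0199) did not pass when control rat 1 (3.02), PFOS rat 1 (2.97) or PFOS rat 3 (2.997) was left out. Probes of these enzyme families can bind transcripts of near-identical genes, so the values are uncertain as to the gene.

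For transport and plasma binding 1 of 9 tested probes rose and none fell, with a median of -0.18 beside -0.01 over all probes, of which 1.74% were called higher. The probe that rose was Slc3a2, the heavy chain that the amino acid and thyroid hormone carriers of the LAT type need to reach the cell surface. Its values were -0.86, -0.72, -0.66 and -0.78 in control and 0.11, -0.35, 0.04 and -0.23 in PFOS. All PFOS rats were above all controls, with PFOS rats 1 and 3 highest, as for Dio3 and both Ugt1a6 probes. PFOS arrays 1 and 3 lay in slide columns 2 and 1, and PFOS arrays 2 and 4 in columns 4 and 3. The part of slide position in this order was not tested. The change was 0.65 (SE 0.11, limma adjusted p = 0.0156) and 0.68 in Cy5 alone. It did not pass without control 1 (0.61, limma adjusted p = 0.0511) or with slide column as a block (limma adjusted p = 0.0546). Of 14 other settings in all, slide column among them, Slc3a2 passed in 11 and not in 3, with a highest limma adjusted p = 0.272.

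Receptor partners and coregulators had 0 of 12 probes called in either direction, where 3.74% of all probes were, with a median of 0.05. A count of 0 in so short a list does not set it apart from that share. One probe of Tbl1x, a subunit of corepressor complexes, changed by 0.26 (SE 0.12, limma adjusted p = 0.277) and did not pass. The other tested Tbl1x probe went the other way, at -0.11 (SE 0.12, limma adjusted p = 0.639). Other liver genes that respond to T3 had 0 of 17 probes called, against the same 3.74%, and a median of -0.22. Fasn, fatty acid synthase, was the lowest of them, at 3.23, 4.38, 1.87 and 3.37 in control and 1.84, 1.72, 1.15 and 2.20 in PFOS, a change of -1.49 (SE 0.45, limma adjusted p = 0.118). Acaca, acetyl-CoA carboxylase, had 1.94, 2.02, 0.93 and 1.498 in control and 0.91, 0.40, 0.74 and 0.90 in PFOS, a change of -0.86 (SE 0.23, limma adjusted p = 0.0819). Control rat 3 was the lowest control for both, as it was for Thrsp in Cy5. Without that rat Fasn changed by -1.93 and Acaca by -1.08, and both passed (limma adjusted p = 0.0199 and 0.0167, with 2.44% of all probes called). Neither passed with any other array left out, where Fasn ran from -1.64 to -1.096 and Acaca from -0.92 to -0.72.

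Selenoproteins and the factors that insert selenocysteine, on which deiodinases depend, had 0 of 19 probes called in the ratio, where 3.74% of all probes were. Their median was 0.02. Gpx4, a glutathione peroxidase, changed by 0.23 (SE 0.07, limma adjusted p = 0.0969) and Eefsec, the elongation factor for selenocysteine, by 0.26 (SE 0.08, limma adjusted p = 0.102). In Cy5 alone, where 4.7% of all probes were called, 2 of the 19 passed: Eefsec rose by 0.28 (limma adjusted p = 0.0474) and Sepsecs, which forms selenocysteine on its transfer RNA, changed by -0.28 (limma adjusted p = 0.0401). Among the genes of NADH shuttles around Gpd2, 1 of 7 probes fell and none rose, where 2% of all probes were called lower. This was Mdh1, cytosolic malate dehydrogenase, at 1.37, 1.41, 1.33 and 1.34 in control and 1.05, 1.09, 1.03 and 1.03 in PFOS, a change of -0.31 (SE 0.07, limma adjusted p = 0.0368). Its call was lost with any 1 array left out, at -0.32 to -0.30 and limma adjusted p = 0.0637 to 0.1. Of 14 other settings Mdh1 passed in 8 and not in 6. Among the 6 were median centring (limma adjusted p = 0.571) and slide column as a block (limma adjusted p = 0.139).

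Over the 8 arrays the log2 ratio of Dio1 was most alike, by Pearson's r among 11128 tested probes with a symbol, to that of Mdh1 (0.989), St6gal1 (0.987), C4h2orf42 (0.987), Mmd2 (0.984) and Spp2 (0.983). These values describe 8 points that fall into the 2 diet groups and share their arrays. Of the 5, St6gal1, a sialyltransferase, fell by 0.65 on the log2 scale (SE 0.08, limma adjusted p = 0.00294) and Spp2, a secreted phosphoprotein, by 0.47 (SE 0.07, limma adjusted p = 0.00897). With scaling between arrays neither passed, St6gal1 at -0.51 (limma adjusted p = 0.163) and Spp2 at -0.24 (limma adjusted p = 0.646), and neither passed in a slide row alone. Spp2 also did not pass with median centring (limma adjusted p = 0.245) or with slide column as a block (limma adjusted p = 0.0585). C4h2orf42 changed by -0.27 and did not pass (limma adjusted p = 0.0625), and Mmd2 exceeded background on the 4 control arrays and on 0 of the 4 PFOS arrays.

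**Figure D4:**
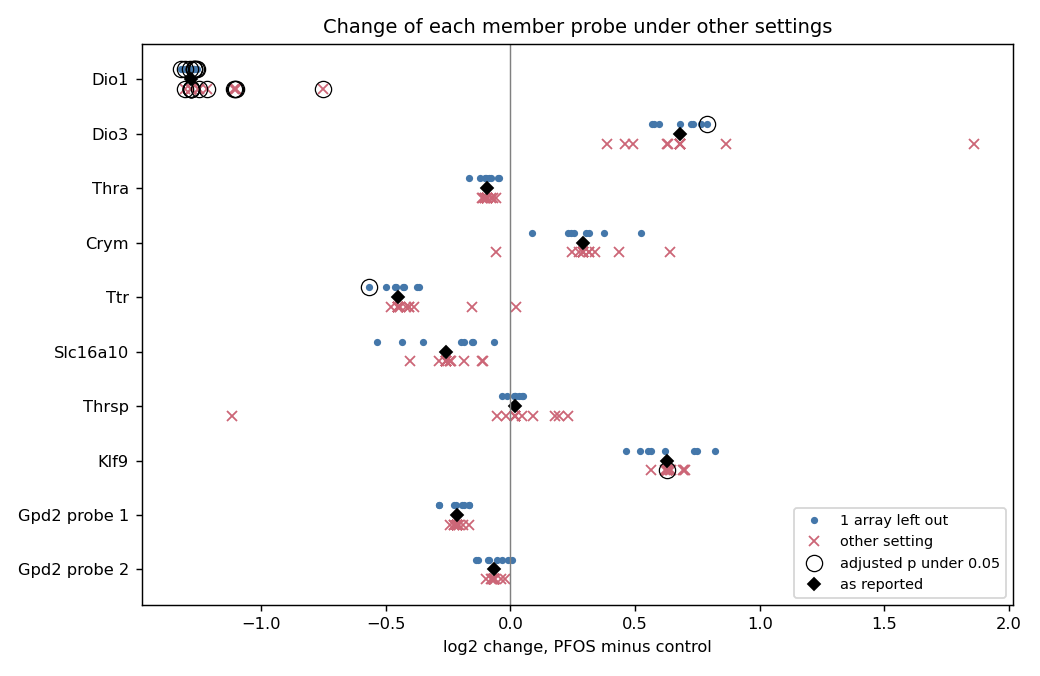
Log2 change in the ratio for each member probe as reported (diamond), with 1 array left out (dots) and under other processing settings or the Cy5 channel alone (crosses); rings mark an adjusted p under 0.05. Dio1 stays between -1.32 and -0.75, and the separate Thrsp cross at -1.12 is the Cy5 channel alone.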

How the data were processed

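Per the labels, 8 liver RNA samples in Cy5 were hybridized beside a common reference in Cy3, with no dye swap. Per the file headers, the authors extracted spot intensity values with Agilent Feature Extraction 10.7.3.1. A value table deposited by the authors holds log2 ratios, and how they were made is not given in the sources used here. They correlated at 0.995 to 0.997 with log2 ratios of Cy5 over Cy3 taken without background subtraction. Their medians per array were -0.06 to -0.05, and how they were centred is unknown.

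Median signals were corrected with normexp (offset 50) and normalized by loess within arrays. Single channels were quantile normalized. Spots marked as outliers were left out, none of them a member's spot, no spot was saturated, and spots of a probe were averaged. Of 30367 probes, 18004 matched 1 symbol, and 16952 clearly exceeded background in Cy5 on 4 or more arrays. Each probe was tested with limma 3.58.1 in R 4.3.3, with two-sided Benjamini-Hochberg adjusted p-values, after a test on simulated data. The number of arrays limits the precision.

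The members and gene lists were chosen with earlier results of these data known. The text names every member probe, up to 4 called probes of each other list or the 2 of smallest p, and the 5 probes most like Dio1. Sepsecs and Slco1a4 were chosen after their values were seen. One gene that this rule names is not reported here. The probes of Thrb and Dio2 did not pass the filter and were not tested. The alternatives were other background, normalization and filter settings, slide row or column as a block, each slide row alone, the deposited ratios and each array left out.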

Additional observations from a re-analysis of the deposited data

Results flagged for a closer look

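Of 92 groups of 4 values examined for an array far from the other 3, 3 stood out, where chance flags about 1 group in 20. In the log2 ratio of Dio1, control rat 3 lay below the other controls, with a gap that made up 0.849 of the range of the group. In the log2 ratio of Slc16a10, PFOS rat 1 lay above the other PFOS rats, with a gap of 0.882 of the range. In the Cy3 signal of Thra, PFOS array 4 lay below the other PFOS arrays, with a gap of 0.896 of a narrow range. Without control rat 3, Dio1 changed by -1.32 (limma adjusted p = 0.000431), and without PFOS rat 1, Slc16a10 changed by -0.53 and did not pass.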

How the results depend on the processing

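The ratio had 634 calls, and separate fits had 261 with median centring, 293 with slide column as a block, 108 in the first slide row alone, 36 in the second, and 369 to 551 with each array left out in turn. The Cy5 channel had 796 calls, 436 with scaling to the 75th percentile and 455 to 719 over arrays left out, and the Cy3 channel 13, with 8 to 18 over arrays left out. Calls among the members, 1 as reported, were 0 in the second row alone, 2 with slide row as a block and 1 to 2 over arrays left out. Dio1 changed by -1.32 to -1.26 over arrays left out and was called each time, and by -1.25 in the second row alone, where it was not called with 2 arrays against 2. The ratio of Thrsp turned to -1.12 in Cy5 alone, -0.018 with median centring and -0.054 in the first row alone, and ran from -0.033 to 0.049 over arrays left out. The ratio of Ttr turned to 0.022 in Cy5 alone, and its Cy5 change ran from -0.0076 to 0.042 over arrays left out. Crym turned to -0.056 in the second row alone, and Gpd2 probe 2 ran from -0.14 to 0.0074 in the ratio and -0.12 to 0.0075 in Cy5 over arrays left out. Other reversals were of small Cy3 changes. With processed signals Crym turned to 0.028, Dio3 to -0.11 and Gpd2 probe 1 to -0.023, and with the 75th percentile Dio1 turned to 0.012 and Gpd2 probe 1 to -0.00086. Over arrays left out the Cy3 changes ran from -0.049 to 0.013 for Crym, -0.022 to 0.040 for Dio3, -0.0075 to 0.020 for Gpd2 probe 1, -3.168e-05 to 0.072 for Gpd2 probe 2, -0.0012 to 0.038 for Klf9 and -0.014 to 0.057 for Slc16a10. The cause of these shifts was not tested, beyond the fewer arrays in the rows alone and with arrays left out. No paired analysis was possible because the labels number rats by their own identifiers, which groups do not share. Dio3 has no value where a probe had to be above background on all 8 arrays, and Gpd2 probe 2 none with 1 probe per gene. Weak signal limits the Cy5 values of Dio3 and Slc16a10 and the Cy3 values of Dio1, Dio3 and Slc16a10.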
